A study of Homo sapiens with 8 samples.

Results

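The adrenergic core transcription factors examined here were *PHOX2A*, *HAND1*, *HAND2*, *GATA2*, *GATA3*, *ISL1*, *TBX2* and *TFAP2B*. These 8 listed genes were taken from 20162 protein-coding genes of the GENCODE annotation on GRCh37, and all 8 were found. DNA methylation was mapped by sequencing after capture with the methyl-CpG-binding domain of MBD2 (MBD-seq) in 8 established neuroblastoma (NB) cell lines, with 1 library for each line. *MYCN* was amplified (MNA) in IMR-32, N206, CHP-902R and LAN-2 (titled LA-N-2), and not amplified (*MYCN* single copy) in SK-N-AS, SJNB-1, CLB-GA and SH-SY5Y. No line had been treated, and each line stands for the culture of a single tumor. A peak is a stretch of DNA in which captured fragments piled up, and it marks methylated CpGs. Absence of a peak can also follow from few CpGs or from low depth, and the files give no read number for any line.

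NB arises from the sympathoadrenal lineage of the neural crest. In adrenergic NB cells a circuit of transcription factors, in which these genes take part, keeps its own members and the noradrenergic program switched on, whereas mesenchymal NB cells run another program. SK-N-AS is commonly placed on the mesenchymal side and was therefore set against the other 7 lines. The files hold no expression, so the state of a line was not checked. CpG islands at the promoters of such developmental regulators are generally free of methylation, which tends to lie on the shores and over the transcribed body.

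The peak lists held 70816 to 112412 peaks, 86079 of them in SK-N-AS, and covered 39.8 to 61.0 Mb. The score of a peak grows with its significance and starts at 50 in every list. Peaks scoring 100 or more made up 11.5% of the SK-N-AS list, the lowest share of the 8 lines, and up to 22.8% elsewhere (LAN-2).

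The sites on which the comparison of SK-N-AS turned are shown here as stretches shared by the peaks of all lines named for them. The first 4 stretches lay in peaks of most other lines and in none of SK-N-AS, the *HAND2* stretch lay in peaks of SK-N-AS and LAN-2 alone, and the *TBX2* stretch lay in peaks of SK-N-AS and 5 other lines. They were read from GRCh37 on the strand of the gene, and capitals mark the CpGs, the dinucleotides that can be methylated.
HAND1 (chr5:153858633-153858872, minus strand, promoter site): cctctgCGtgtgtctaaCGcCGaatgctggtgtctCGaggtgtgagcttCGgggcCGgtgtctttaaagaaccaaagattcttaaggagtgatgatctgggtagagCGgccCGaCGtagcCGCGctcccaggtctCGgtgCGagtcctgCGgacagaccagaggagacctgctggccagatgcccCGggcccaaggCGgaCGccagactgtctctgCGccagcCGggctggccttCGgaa
TFAP2B (chr6:50818772-50819011, plus strand, site past the gene end): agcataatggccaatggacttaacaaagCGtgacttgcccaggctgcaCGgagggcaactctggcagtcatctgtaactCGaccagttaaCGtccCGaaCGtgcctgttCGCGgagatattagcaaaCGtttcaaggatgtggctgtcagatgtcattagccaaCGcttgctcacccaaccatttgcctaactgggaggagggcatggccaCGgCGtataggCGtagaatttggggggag
GATA3 (chr10:8085536-8085720, plus strand, upstream site): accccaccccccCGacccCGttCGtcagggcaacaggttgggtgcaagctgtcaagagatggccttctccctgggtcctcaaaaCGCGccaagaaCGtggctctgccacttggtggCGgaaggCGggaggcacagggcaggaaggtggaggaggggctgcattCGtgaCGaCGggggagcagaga
PHOX2A (chr11:71961969-71962208, minus strand, upstream site): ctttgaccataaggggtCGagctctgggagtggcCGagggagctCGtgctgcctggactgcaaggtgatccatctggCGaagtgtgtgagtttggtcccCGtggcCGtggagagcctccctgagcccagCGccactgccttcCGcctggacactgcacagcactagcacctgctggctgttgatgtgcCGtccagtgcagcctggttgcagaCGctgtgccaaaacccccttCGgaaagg
HAND2 (chr4:174459346-174459585, minus strand, upstream site): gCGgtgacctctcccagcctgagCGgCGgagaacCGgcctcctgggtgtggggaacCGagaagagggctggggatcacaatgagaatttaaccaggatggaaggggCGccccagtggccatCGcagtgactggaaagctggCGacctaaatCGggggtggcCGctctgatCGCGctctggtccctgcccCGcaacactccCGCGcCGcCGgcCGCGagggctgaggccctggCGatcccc
TBX2 (chr17:59473139-59473378, plus strand, upstream site): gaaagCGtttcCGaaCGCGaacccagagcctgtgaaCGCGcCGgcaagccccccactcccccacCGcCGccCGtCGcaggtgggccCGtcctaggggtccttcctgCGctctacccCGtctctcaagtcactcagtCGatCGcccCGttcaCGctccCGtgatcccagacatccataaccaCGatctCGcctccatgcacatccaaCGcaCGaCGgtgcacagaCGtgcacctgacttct

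The *HAND1* and *HAND2* stretches held 20 CpGs each in 240 bp, the *TBX2* stretch 25, the *TFAP2B* stretch 13 and the *PHOX2A* stretch 11. The *GATA3* stretch held 11 CpGs in 185 bp.

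Around the transcription start site (TSS) itself few peaks were found in any line, at the 8 genes as at protein-coding genes in general. Within 500 bp of the canonical TSS, which is the start of the transcript tagged as canonical, no gene had a peak in 7 of the 8 lines, and only *HAND1* had one in LAN-2, from −1460 to −423 bp. Among all protein-coding genes, 6.64% had such a peak in SK-N-AS and 6.27% to 11.4% in the other lines. Among those with the canonical TSS in a CpG island, the shares were 6.11% in SK-N-AS and 5.71% (N206) to 12.0% (IMR-32) in the others. With shares this low, the near absence of peaks at 8 genes does not set them apart. The canonical TSS lay in a CpG island in 7 of the 8 genes, the exception being *TFAP2B*. The island at the *TBX2* TSS was the longest of these, with 5974 bp.

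Peaks lay on both sides of this stretch. From −1500 to +1000 bp of the canonical TSS, 0% of the DNA of the 8 genes was covered in SK-N-AS, against 4.31% ± 3.35 (SD, n = 7) in the other lines. CLB-GA and SJNB-1 were also at 0, so that SK-N-AS was not separated from the other lines. The covered lines were IMR-32 with 2.64%, N206 with 6.06%, SH-SY5Y with 6.95%, LAN-2 with 7.08% and CHP-902R with 7.44%. Farther upstream, from −10000 to −5000 bp, the order turned: 13.3% was covered in SK-N-AS against 6.76% ± 1.92 (SD, n = 7) in the other lines, whose highest value was 9.11% in CLB-GA. The comparison by zone was not planned in advance. Among the zones examined within 10 kb of the TSS, this was the only one in which SK-N-AS lay outside the range of the other lines. In that zone 6 of the 8 genes had a peak in SK-N-AS, against 2 to 5 in the other lines, while of all protein-coding genes 21.2% had one in SK-N-AS and 19.5% to 26.6% in the other lines. Among protein-coding genes with the TSS in an island, 2.76% of this zone was covered in SK-N-AS and 3.21% ± 0.44 (SD, n = 7) in the others, and from −1500 to +1000 bp 3.07% and 4.05% ± 1.10 (SD, n = 7). Counting only peaks that scored 100 or more, the difference at the 8 genes from −10000 to −5000 bp went from 6.55 to −1.95 percentage points, an alternative chosen after seeing the data. From −5000 to −1500 bp the values were 8.43% in SK-N-AS and 9.30% ± 5.01 (SD, n = 7) in the others.

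**Figure D1:**
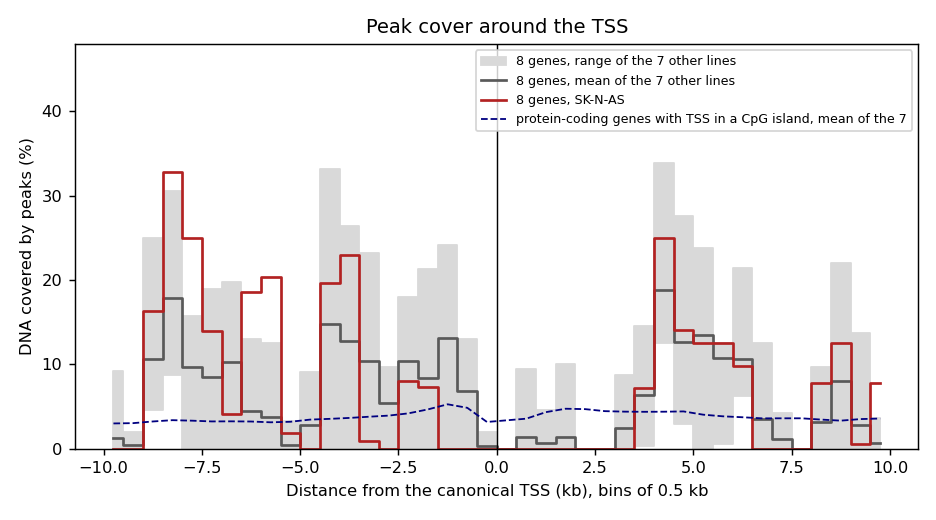
Percent of DNA covered by peaks (y axis) in bins of 500 bp by distance from the canonical TSS in kb (x axis), for the 8 genes in SK-N-AS (red) and in the 7 other lines (grey line, mean; band, range), and for protein-coding genes with the TSS in a CpG island (dashed). In the bin from the TSS to 500 bp downstream no line had cover at the 8 genes, and SK-N-AS lay above the band at several bins upstream.

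Each annotated TSS was given a promoter window reaching 1500 bp upstream and 1000 bp downstream. In these windows SK-N-AS had a peak at 1 of the 8 genes, *TBX2*. The other lines had such a peak at 3 ± 1.63 genes (SD, n = 7), with 1 in SJNB-1, 2 in CLB-GA and CHP-902R, 3 in SH-SY5Y and N206, 4 in IMR-32 and 6 in LAN-2. SK-N-AS shared the lowest count with SJNB-1. Of all protein-coding genes, 33.7% had a promoter peak in SK-N-AS and 33.3% to 41.0% in the other lines, so that the genome-wide share was also near its lowest in SK-N-AS. In at least 1 line, 6 of the 8 genes had a promoter peak, as did 73.9% of all protein-coding genes. *HAND2* and *ISL1* had none in any line.

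Over the gene body, SK-N-AS had a peak at 3 of the 8 genes (*GATA3*, *TBX2* and *TFAP2B*), against 3.86 ± 0.90 (SD, n = 7) in the other lines and 63.7% of all protein-coding genes in SK-N-AS. Within the gene or 10 kb of it, the counts were 7 in SK-N-AS and 7 ± 0.58 (SD, n = 7) in the others, against 79.7% of all protein-coding genes in SK-N-AS. *ISL1* was the gene without a peak in SK-N-AS. Counting only peaks that scored 100 or more, the count within 10 kb was 2.71 genes lower in SK-N-AS than the mean of the other lines. Of its peaks at the 8 genes only 1, at *TBX2*, had such a score. Over its whole list SK-N-AS also had the lowest share of such peaks, 11.5%. The share of all protein-coding genes with such a peak is not given here, so this count cannot be read as particular to the 8 genes.

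The percent of each gene plus 10 kb covered by peaks was then set side by side, since it uses the whole length of the peaks. Over the 8 genes together it was 5.80% in SK-N-AS and 6.65% ± 1.60 (SD, n = 7) in the other lines, with a range of 4.22% to 8.82%. Over all protein-coding genes it was 2.27% and 2.57% ± 0.39 (SD, n = 7). The cover of the 8 genes was thus 2.55 times that of all genes in SK-N-AS and 2.60 ± 0.60 times (SD, n = 7) in the other lines, a difference within the spread between lines. With 1 line against 7 the smallest 2-sided exact permutation p is 0.25, so no single gene could pass 0.05, and a gene was called only where SK-N-AS lay outside the range of the other 7 lines. SK-N-AS was below every other line at 10.6% of 19135 protein-coding genes with cover in any line, and above every other line at 8.83%. Of the 8 genes, 1 lay below (*TFAP2B*) and 1 above (*HAND2*), which is close to these shares.

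**Figure D2:**
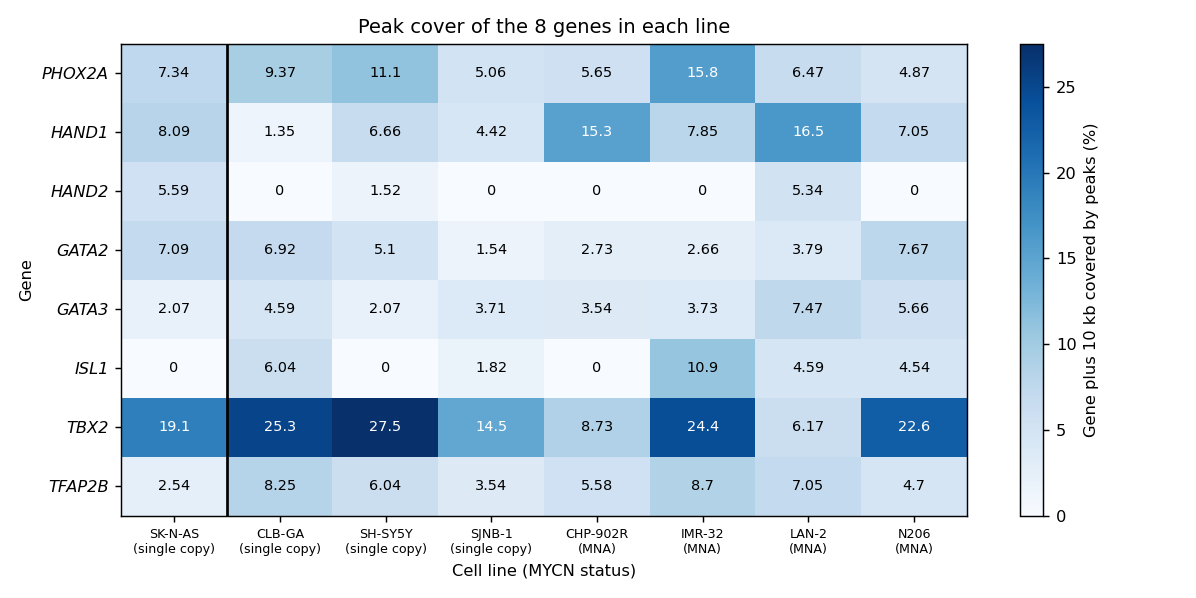
Percent of each gene plus 10 kb covered by peaks, for the 8 genes (rows) in the 8 lines (columns, with *MYCN* status), SK-N-AS being left of the black line. *TBX2* had the darkest row, SK-N-AS had the highest value at *HAND2* (5.59%) and the lowest at *TFAP2B* (2.54%), and *ISL1* was at 0 in SK-N-AS, SH-SY5Y and CHP-902R.

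*PHOX2A* (ENSG00000165462, chr11:71950121-71956708, minus strand) encodes a paired-type homeodomain factor that switches on the genes of noradrenaline synthesis. SK-N-AS had 7.34% covered, and the other lines ranged from 4.87% (N206) over a median of 6.47% to 15.8% (IMR-32). SK-N-AS lay inside this range, with an exact permutation p of 1. Within 1 Mb on each side SK-N-AS was below every other line, with 1.17% against 1.82% to 7.27%, and within 5 Mb it was inside their range. Its 3 peaks at *PHOX2A* had scores of 50.7 to 53.62, and only 2.58% to 13.8% of the peaks in its list scored lower. The one from −8955 to −8463 bp lay in a site of which 75.7% of the 45-bp windows, the read length, were unique in the genome. When every list was cut to the 70816 best peaks of the shortest list, the difference from the mean of the other lines went from −0.99 to −7.35 percentage points. Without IMR-32 it was 0.25, so that a single line set its direction. A site from −7295 to −6306 bp, in an exon of the gene ENSG00000228286, had a peak in 6 lines but not in SK-N-AS or SJNB-1. A peak from −1673 to −897 bp, overlapping a *PHOX2A* exon upstream of the canonical start, was present in IMR-32, SH-SY5Y and CHP-902R. The 3 CpG islands near *PHOX2A*, 3599 bp in all, had no cover in any line.

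*ISL1* (ENSG00000016082, chr5:50679282-50690564, plus strand), a LIM-homeodomain factor of sympathetic and motor neurons, had no peak in SK-N-AS. SH-SY5Y and CHP-902R were at 0 as well, and SJNB-1 (1.82%), N206 (4.54%), LAN-2 (4.59%), CLB-GA (6.04%) and IMR-32 (10.9%) were covered. The exact permutation p was 0.75, and a value of 0 did not set SK-N-AS apart. In 5 lines a peak lay on an island past the gene end, from 15439 to 16583 bp. An island within the gene, from 5976 to 7169 bp, had peaks in IMR-32 and LAN-2 that ranked high in their lists, above 89.4% of peaks on average. CLB-GA, IMR-32 and N206 shared a peak from −4862 to −3944 bp, in an exon of the divergent transcript *ISL1-DT*, whose TSS is 116 bp from that of *ISL1*.

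*HAND1* and *HAND2* encode basic helix-loop-helix factors, of which *HAND2* is required for the noradrenergic fate of sympathetic neurons. At *HAND1* (ENSG00000113196, chr5:153854532-153857787, minus strand) SK-N-AS had 8.09% covered. The other lines ranged from 1.35% (CLB-GA) over a median of 7.05% to 16.5% (LAN-2), with CHP-902R at 15.3%, and the exact permutation p was 0.75. The cover was similar in amount but not in place. From −2738 to −423 bp, a site that is mostly CpG island and holds the first stretch shown above, 6 lines had peaks, while SK-N-AS and CLB-GA had none. Of these 6, SH-SY5Y, N206, CHP-902R and LAN-2 had a peak within the promoter window, with scores from 61.91 to 103.05. Instead SK-N-AS had a peak from −6246 to −5424 bp, shared with LAN-2, and one from 9494 to 9811 bp that no other line had. In the latter site only 62.8% of the 45-bp windows were unique in the genome. Downstream of the gene, from 3787 to 4642 bp, SK-N-AS shared a site with 5 other lines, where its score of 54.09 was the lowest and theirs were 96.3 to 132.1.

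At *HAND2* (ENSG00000164107, chr4:174446120-174451380, minus strand) SK-N-AS had 5.59% covered. LAN-2 had 5.34%, SH-SY5Y 1.52% and the other 5 lines 0. SK-N-AS was above every other line, by little over LAN-2 and by 4.61 percentage points over the mean of the 7 (exact permutation p = 0.25, the smallest possible). It had 2 peaks. The first, from −8468 to −7444 bp, lay mostly on a CpG island in an exon of the antisense gene *HAND2-AS1* and overlapped only a peak of LAN-2. Its score was 86.31, that of the LAN-2 peak being 98.76. By rank the order was the other way, with 79.7% of the SK-N-AS list and 76.4% of the LAN-2 list scoring lower. The other, from 13761 to 14146 bp, fell in a site shared with SH-SY5Y and LAN-2. Among peaks that scored 100 or more, the difference reversed to −0.22, because both SK-N-AS peaks were dropped and 1 of SH-SY5Y (100.95) stayed. The DNA around the gene moved in the same direction: within 1 Mb on each side 2.55% was covered in SK-N-AS against 0.61% to 1.78% in the other lines, and within 5 Mb 1.86% against 0.57% to 1.33%. The part of this surrounding difference in the value at *HAND2* was not tested. *HAND2-AS1*, a long gene with a start 124 bp from that of *HAND2*, had promoter peaks in CLB-GA, SH-SY5Y, N206 and CHP-902R and not in SK-N-AS. None of these peaks lay within 10 kb of *HAND2*, so they belonged to other starts of *HAND2-AS1* and not to the shared promoter.

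*GATA2* and *GATA3* encode zinc finger factors of the sympathetic lineage, *GATA3* being needed for the survival of sympathetic neurons. At *GATA2* (ENSG00000179348, chr3:128198270-128212044, minus strand) SK-N-AS had 7.09% covered. The others ranged from 1.54% (SJNB-1) over a median of 3.79% to 7.67% (N206), and the exact permutation p was 0.5. Only N206 exceeded SK-N-AS, so that without N206 *GATA2* joined *HAND2* as a gene at which SK-N-AS was highest. Its 3 peaks all lay upstream in *GATA2-AS1*, from −6575 to −5688 bp, from −4350 to −3463 bp and from −2322 to −1706 bp, whereas CLB-GA, LAN-2 and SJNB-1 had a peak near the 3′ end, in the site from 11623 to 12902 bp. That 3′ site overlapped the windows of internal starts and made up the promoter peaks of these 3 lines. Over the gene body alone, the difference of SK-N-AS from the mean of the other lines went from 2.74 to −2.69 percentage points.

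At *GATA3* (ENSG00000107485, chr10:8087341-8117161, plus strand) SK-N-AS had 2.07% covered. SH-SY5Y was just lower and also rounds to 2.07%, the median of the other lines was 3.73% and the highest value 7.47% (LAN-2), with an exact permutation p of 0.5. Without SH-SY5Y, *GATA3* joined *TFAP2B* as a gene at which SK-N-AS was lowest. The most shared site, from −11766 to −10414 bp, had a peak in 6 lines and none in SK-N-AS or CLB-GA. In IMR-32, SH-SY5Y, N206 and LAN-2 that peak reached the window of an alternative start far upstream of the canonical one, which gave *GATA3* its promoter peaks. The 2 peaks of SK-N-AS lay from −12729 to −12437 bp and in an intron from 13651 to 14390 bp. No island cover was found at *GATA3* in SK-N-AS or IMR-32, against 0.75% to 9.98% in the other 6 lines.

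*TBX2* (ENSG00000121068, chr17:59477204-59486827, plus strand), which encodes a T-box repressor, carried the most cover of the 8 genes in SK-N-AS, CLB-GA, IMR-32, SH-SY5Y, N206 and SJNB-1. SK-N-AS had 19.1%, and the others ranged from 6.17% (LAN-2) over a median of 22.6% to 27.5% (SH-SY5Y). SK-N-AS lay inside this range (exact permutation p = 1). A site from 3149 to 6464 bp within the gene had peaks in every line but LAN-2. In SK-N-AS it scored 158.22, above 98.6% of its list, which was its strongest peak at the 8 genes. Upstream, a site from −4478 to −2612 bp that held 169 CpGs was shared by SK-N-AS and 5 other lines and overlapped *TBX2-AS1*. The promoter peak of SK-N-AS, from 8189 to 9018 bp, belonged to an annotated start near the 3′ end of the gene and was shared with CLB-GA, IMR-32 and LAN-2. Past the gene, from 16463 to 17703 bp, the other 7 lines had a peak and SK-N-AS had none. In the *TBX2* islands, 12962 bp in all, LAN-2 had no cover, SK-N-AS had 23.3% and the remaining lines 9.44% to 49.1%.

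*TFAP2B* (ENSG00000008196, chr6:50786436-50815332, plus strand) encodes an AP-2 factor of neural crest derivatives. SK-N-AS had 2.54% covered, below SJNB-1 (3.54%), N206 (4.70%), CHP-902R (5.58%), SH-SY5Y (6.04%), LAN-2 (7.05%), CLB-GA (8.25%) and IMR-32 (8.70%). The difference from their mean was −3.72 percentage points (exact permutation p = 0.25, the smallest possible). Over the gene body alone the difference was −2.84 and SK-N-AS was no longer below every line. Within 1 Mb on each side SK-N-AS had 0.58%, inside the range of 0.26% to 0.84% in the other lines, and with a flank of 50 kb in place of 10 kb the difference was −1.47. SK-N-AS had 2 peaks at this gene. The one from −8697 to −8070 bp lay in a site with a peak in all 8 lines, the only such site at the 8 genes, but only 60.8% of its 45-bp windows were unique in the genome. The other lay in the 3′ part of the gene, from 26783 to 27398 bp, and scored 93.55. Past the gene, from 31124 to 32892 bp, all 7 other lines had a peak, with scores of 57 to 92.25, and SK-N-AS had none. Among peaks that scored 100 or more, the difference shrank to −0.99 and SK-N-AS was no longer below every line.

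**Figure D3:**
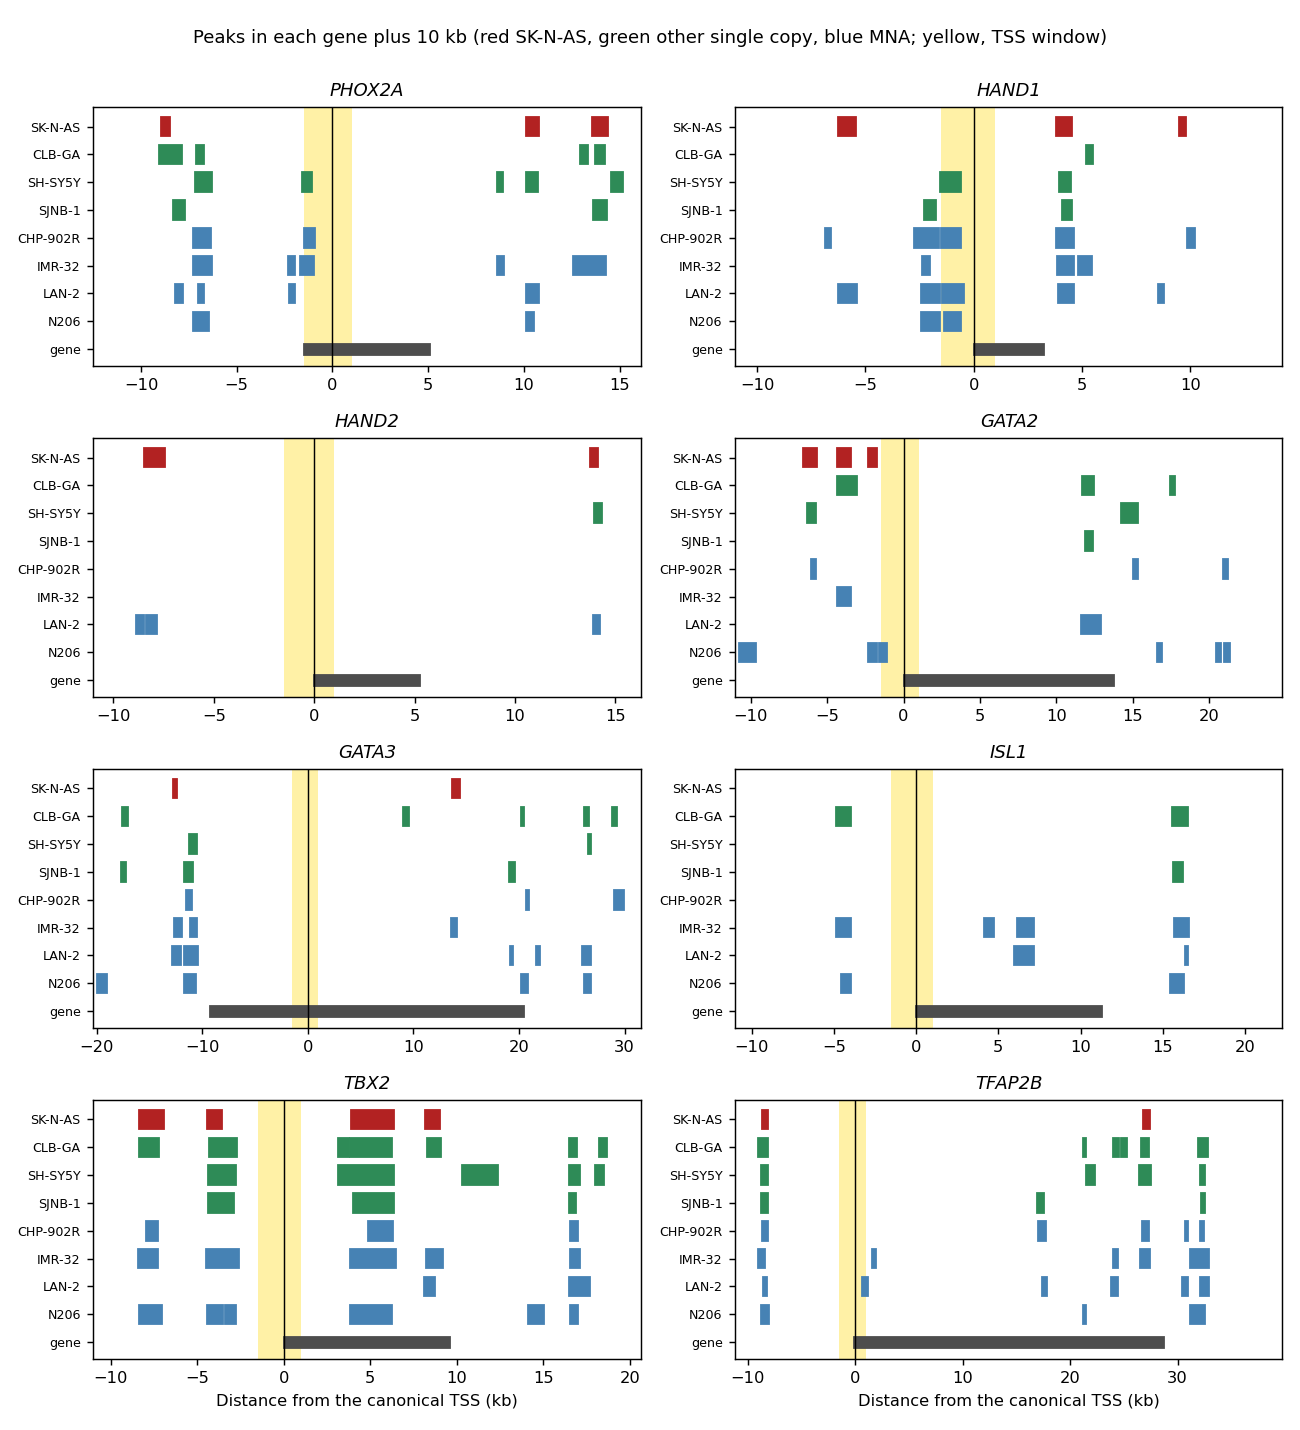
Peaks of each line (rows) at each gene plus 10 kb by distance from the canonical TSS in kb (x axis), with SK-N-AS in red, other *MYCN* single copy lines in green and MNA lines in blue. The grey bar is the gene and the yellow band runs from −1500 to +1000 bp of the canonical TSS. The yellow band held no peak in SK-N-AS, CLB-GA or SJNB-1, and the sites past the ends of *TBX2* (16463 to 17703 bp) and *TFAP2B* (31124 to 32892 bp) lacked a peak in SK-N-AS alone.

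Merging overlapping peaks of all lines gave 64 sites at the 8 genes. Of these, 21 came from a single line, 12 were found in 5 or more lines and 1 was common to all 8. An island was overlapped by 22 sites, and 0 sites covered a canonical TSS. SK-N-AS had a peak in 19 sites, and the other lines had one in 15 (SJNB-1) to 27 (LAN-2). Of the 10 sites that at least 5 of the other lines held, SK-N-AS had 4. The same count, made for each other line against the remaining 7, ran from 6 of 9 in CLB-GA and 7 of 11 in LAN-2 to 9 of 9 in IMR-32. Over the whole genome, SK-N-AS had 57.9% of the sites held by at least 5 of the other lines, also the lowest share, and the other lines had 58.7% (SJNB-1) to 68.3% (LAN-2). At the 8 genes 1 site was found in SK-N-AS alone, against 0 in SJNB-1 and up to 6 in N206. Over the whole genome the order was another: 32.8% of the sites of SK-N-AS were found in it alone, the highest share. In the other lines this share was 25.3% (CLB-GA) to 31.7% (LAN-2). These counts use the same peaks as the values above and are given as a description.

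The overlap of covered DNA between lines (Jaccard index, shared over joint length) was averaged over pairs. At the 8 genes it was 0.226 for SK-N-AS, the same as for CHP-902R and above LAN-2 (0.168), and highest for IMR-32 (0.289). Over the whole genome SK-N-AS was the lowest of the 8 lines with 0.130, the others lying between 0.135 and 0.149. In the CpG islands at the 8 genes, 63969 bp in all, 9.52% was covered in SK-N-AS and 8.64% (CHP-902R) to 17.8% (IMR-32) in the others. In the islands of all protein-coding genes SK-N-AS had the lowest cover, 7.64% against 9.22% to 12.9%.

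The 8 genes were also compared between MNA and *MYCN* single copy lines, the groups of the study, with 4 lines each. The largest ratio of means among the genes with a peak in every line was at *HAND1*, with 11.7% ± 4.89 (SD, n = 4) covered in MNA and 5.13% ± 2.94 (SD, n = 4) in single copy lines. The exact permutation p was 0.0857, adjusted over all genes to 0.930. The groups overlapped, since SK-N-AS (8.09%) was above N206 (7.05%) and IMR-32 (7.85%). *GATA3* had 5.10% ± 1.85 and 3.11% ± 1.25 (SD, n = 4 each, exact permutation p = 0.143), and *TBX2* had 15.5% ± 9.36 and 21.6% ± 5.91 (SD, n = 4 each, exact permutation p = 0.286). No gene of the 8 passed an unadjusted p of 0.05, which 3.34% of all genes passed, and the smallest p this design allows is 0.0286. After Benjamini-Hochberg adjustment 0% of all genes passed, with a lowest adjusted p of 0.856. Promoter peaks were found in 3 MNA lines and 1 single copy line for each of *PHOX2A*, *HAND1* and *GATA3*, in 2 lines of each group for *GATA2* and *TBX2*, and in 2 MNA lines and 0 single copy lines for *TFAP2B*. In Fisher's exact test (2-sided) none of them passed an unadjusted p of 0.05, which 0.41% of all genes did, and 0% passed after adjustment. Whether SK-N-AS differed from the other single copy lines by its state or by other properties of the line cannot be told apart with 1 library.

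Other gene lists were read beside the 8 genes. SK-N-AS had 1.72% of the windows of 19 mesenchymal regulators covered (median of the other lines 1.37%), 1.82% of 12 other adrenergic regulators (2.22%), 4.21% of 8 catecholamine genes (3.98%), 4.32% of 12 family relatives of the 8 genes (4.18%) and 2.09% of 10 housekeeping genes (2.75%). SK-N-AS lay inside the range of the other lines in every list. The median difference per gene between SK-N-AS and the mean of the other lines was −0.36 percentage points for all genes. It was lower for the 8 genes (−0.67), the other adrenergic regulators (−0.70) and the family relatives (−0.85). It was closer to no difference for the mesenchymal regulators (−0.01), the catecholamine genes (−0.09) and the housekeeping genes (−0.27). Promoter peaks in SK-N-AS were present at 6 of the 19 mesenchymal regulators and at 4 of the 12 other adrenergic regulators, both equal to the median of the other lines.

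**Figure D4:**
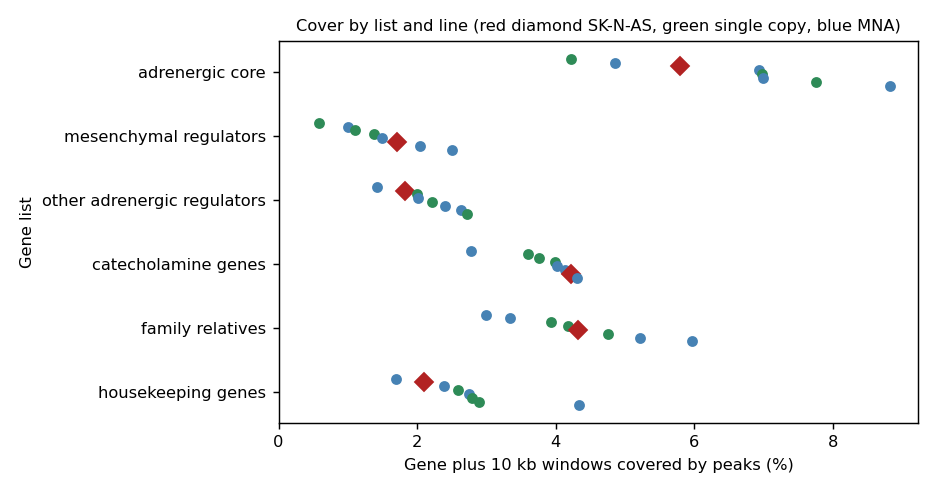
Percent of the gene plus 10 kb windows covered by peaks (x axis) for each gene list (rows), 1 point per line, SK-N-AS being the red diamond, other single copy lines green and MNA lines blue. The 8 adrenergic core genes lay at 4.22% to 8.82%, and SK-N-AS was within the other lines in each list.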

How the data were processed

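MBD-seq peak lists of 8 NB cell lines were used. Per the labels and the study's methods, sheared DNA was captured with MBD2 and sequenced paired-end, the authors mapped reads to GRCh37 with Bowtie 0.12.7 and called peaks in each line separately with MACS. Each deposited file gives the position of every peak and a score, which is the peak's p-value on a scaled −log10 scale. It grows with depth, so raw scores of different lines are not strictly comparable. This limit holds for raw scores set side by side and for the score minimum applied to all lists. For some peaks the rank within their own list was given as well. The calling options, the use of an input control and the reads per line are not given in the sources used here, so no interval or detection limit could be computed.

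Genes and starts came from GENCODE release 44 lifted to GRCh37. An overlap of 1 bp counted. CpG islands were merged 500-bp windows with at least 55% GC and an observed over expected CpG ratio of at least 0.65. Computation used Python 3.11.15, numpy 2.4.6 and scipy 1.17.1. SK-N-AS was compared with the range of the other lines, and MNA with *MYCN* single copy lines by exact permutation and Fisher's exact tests, adjusted by Benjamini-Hochberg over all protein-coding genes. These p-values measure the spread between lines, each sequenced as 1 library. The cover of windows and the exact permutation test were tested on simulated data. Named genes were the 8 genes, genes with a TSS within 1500 bp of theirs, at most 4 genes per list outside the range of the other lines, and the 3 genes with the most similar profile. The members and lists were chosen with earlier results of these data known. Alternatives were a score minimum of 100, lists of equal length, peak midpoints, other windows, scaling by the cover of all genes, and leaving out single lines.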

Additional observations from a re-analysis of the deposited data

Results flagged for a closer look

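Among 24 groups of 4 lines or more examined for a line far from its group, 2 were marked by Dixon's test at the 95% level, and chance marks about 1 in 20. At *PHOX2A*, IMR-32 had 15.8% of the gene plus 10 kb covered, while the nearest other MNA line had 6.47%. The surrounding DNA was also the most covered in IMR-32, with 7.27% within 1 Mb and 7.74% within 5 Mb on each side, and its part in the value was not tested. At *HAND2*, LAN-2 had 5.34% covered while the other MNA lines were at 0, where any value above 0 would have been marked.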

How the results depend on the processing

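No paired analysis was possible because each line is a separate sample and the replicate numbers are only names. With scores of at least 100, genes with a peak within 10 kb differed by −2.71 between SK-N-AS and the mean of the others (0 as reported), no gene of the 8 lay below or above every line (0 and 0), 335 and 993 of all genes did (2020 and 1689 as reported), *HAND2* reversed to −0.22, and the zones from −10000 to −5000 bp and −1500 to +1000 bp gave −1.95 and −0.67. SK-N-AS had the lowest share of peaks with such scores over its whole list, 11.5%. Lists of equal length and a 50-kb flank both gave −1 for genes with a peak within the window, and the gene body alone gave −0.86. On the gene body alone 0 of the 8 genes lay below and 0 above, with 1344 of all genes below. With a 50-kb flank 3 lay below and 0 above, with 2469 of all genes below and 1490 above. With peak midpoints 2 lay above, with 1682 of all genes above. Scaling by the cover of all genes put 2606 of all genes above. The cause was not tested. Leaving out single lines, the 8 genes below every line ranged from 1 to 2 (2 without SH-SY5Y), those above from 1 to 2 (2 without N206), promoter counts differed by −2.33 to −1.5, body counts by −1 to −0.67, counts within 10 kb by −0.17 to 0.17, percent covered over the 8 genes by −1.26 to −0.49, and the zones by 5.97 to 6.94 and −5.03 to −3.79. All genes below ranged from 2281 to 2630 and above from 1780 to 2307. No alternative gave a gene with an adjusted p under 0.05 between MNA and single copy lines. This outcome was largely fixed in advance and says nothing about stability. No alternative allows a p below 0.0286, the smallest with all 8 lines, where the lowest adjusted p for percent covered was 0.856. The files give no read number for a line, so a site without a peak may be methylated but undetected.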

Other observations

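Single genes of the other lists lay outside the range of the 7 other lines in SK-N-AS, in percent of the gene plus 10 kb covered. Among catecholamine genes, *TH*, the rate-limiting enzyme of catecholamine synthesis, had 12.2% (others 0% to 9.45%), *SLC18A1*, a vesicular monoamine transporter, 6.51% (2.12% to 3.24%), and *CHGA*, a granule protein, 0% (4.14% to 7.96%). Among the other adrenergic regulators, *TLX2* had 12.8% (0% to 11.2%) and *KLF7* 2.15% (0.66% to 2.10%), while *SIX3* had 5.55% (7.41% to 18.3%) and *SOX11* 1.32% (2.69% to 5.71%). Of the mesenchymal regulators, *FOSL1*, an AP-1 subunit, had 11.03% (0% to 9.31%), *TBX18* 4.39% (0% to 2.62%) and *RUNX2* 2.51% (0% to 2.05%), while *FOSL2* had 2.68% (3.10% to 11.05%). Of the housekeeping genes, *HPRT1* had 2.88% (1.13% to 2.43%) and *TBP* 0% (0.79% to 2.04%). Genes on either side were thus found in each of these lists. Of the 19 mesenchymal regulators 2 lay below and 3 above in all, at most 4 genes per list being named. Over all protein-coding genes with cover in any line, SK-N-AS was below every other line at 10.6% and above at 8.83%, so genes outside the range are common and the named ones are a description. No family relative of the 8 genes lay outside the range.

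Over the 8 lines, the genes whose percent covered followed the mean of the 8 genes most closely were *SLC25A16* (Pearson's r = 0.970), *MRPL11* (0.950) and *CHSY1* (0.944). They are the highest of 15505 genes with cover in at least 6 lines and were picked as such, and the same 8 peak lists enter both sides, so this is a description.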
